A study of Mus musculus with 6 samples.

Results

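The inducible heme oxygenase gene Hmox1 and 9 genes of the Nrf2 antioxidant pathway were followed in the embryonic mouse lens with and without Notch2. The 10 genes were Hmox1, Hmox2, Nqo1, Gclc, Gclm, Txnrd1, Srxn1, Slc7a11, Gsr and Nfe2l2, and they were chosen with the difference between mutant and wild type lenses already known, above all that of Hmox1. Their own differences are therefore given as a description, with no p. All probe sets that the array's annotation assigns to exactly 1 symbol of these genes were taken, which gave 20 of the 45037 probe sets tested. RNA came from ocular lenses of E19.5 embryos of a mixed C57BL/6 and FVB/N strain. Conditional mutants (3 embryos) had lost the Notch2 receptor gene in the lens, and their wild type littermates (3 embryos) had kept it. Both lenses of an embryo were pooled onto 1 array. The driver of the deletion, the removed exons and the sex of the embryos are not given in the sources used here. The deposited values were centred on each probe set's median, so they are differences between arrays on a log2 scale and hold no expression level. The pair of Notch2 probe sets differed by 0.49 (SE 0.45) and -0.42 (SE 0.21), both with overlapping groups, and since their place relative to the deletion is unknown they do not check the genotypes. Differences are mutant minus wild type on that scale, with the standard error (SE) of the fit and n = 3 arrays per group.

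Nrf2, the protein of Nfe2l2, is a transcription factor that Keap1 holds in the cytoplasm and marks for degradation. Oxidants and electrophiles modify Keap1, and Nrf2 then enters the nucleus, pairs with a small Maf protein and binds antioxidant response elements near genes for glutathione and thioredoxin chemistry, quinone reduction and heme breakdown. Bach1 occupies the same elements as a repressor until heme releases it. Heme oxygenase splits heme into biliverdin, carbon monoxide and iron, and in rodents Hmox1 also answers to heat shock. The lens depends on a large glutathione pool to keep the thiols of its long-lived crystallins reduced.

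Hmox1 was the member that differed between the genotypes, and it did so evenly. Its only probe set read -0.96, -0.96 and -0.92 in wild type lenses 1 to 3 and 1.29, 0.98 and 0.92 in mutant lenses 1 to 3. The wild type lenses lay within 0.04 of each other, every mutant lens lay far above them, and mutant 1 was the highest. The difference was 2.01 (SE 0.16, 95% interval 1.66 to 2.37), which ranked 31 by size among all probe sets. Of the 20 member probe sets, 1 passed limma's adjusted p threshold of 0.05 (5% of them), beside 0.469% of all probe sets and 0.293% counted in the higher direction. Because Hmox1 was chosen on this contrast, nothing is read from that count. With each array left out in turn the Hmox1 difference lay between 1.90 and 2.08.

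None of the other 9 genes had a probe set that passed. Of their 19 probe sets, 0 passed in limma and 0 had an unadjusted p below 0.05, a share that was 11.6% over all probe sets. They split into 10 positive and 9 negative differences between -0.32 and 0.39, with a median of 0.02 against -0.02 over all probe sets. The median size of the difference was 0.19 in these 19 and 0.17 over all probe sets. The 95% intervals reached from -1.01 at the lowest to 0.83 at the highest. Of 7 genes with several probe sets, 5 had probe sets of opposite sign.

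**Figure D1:**
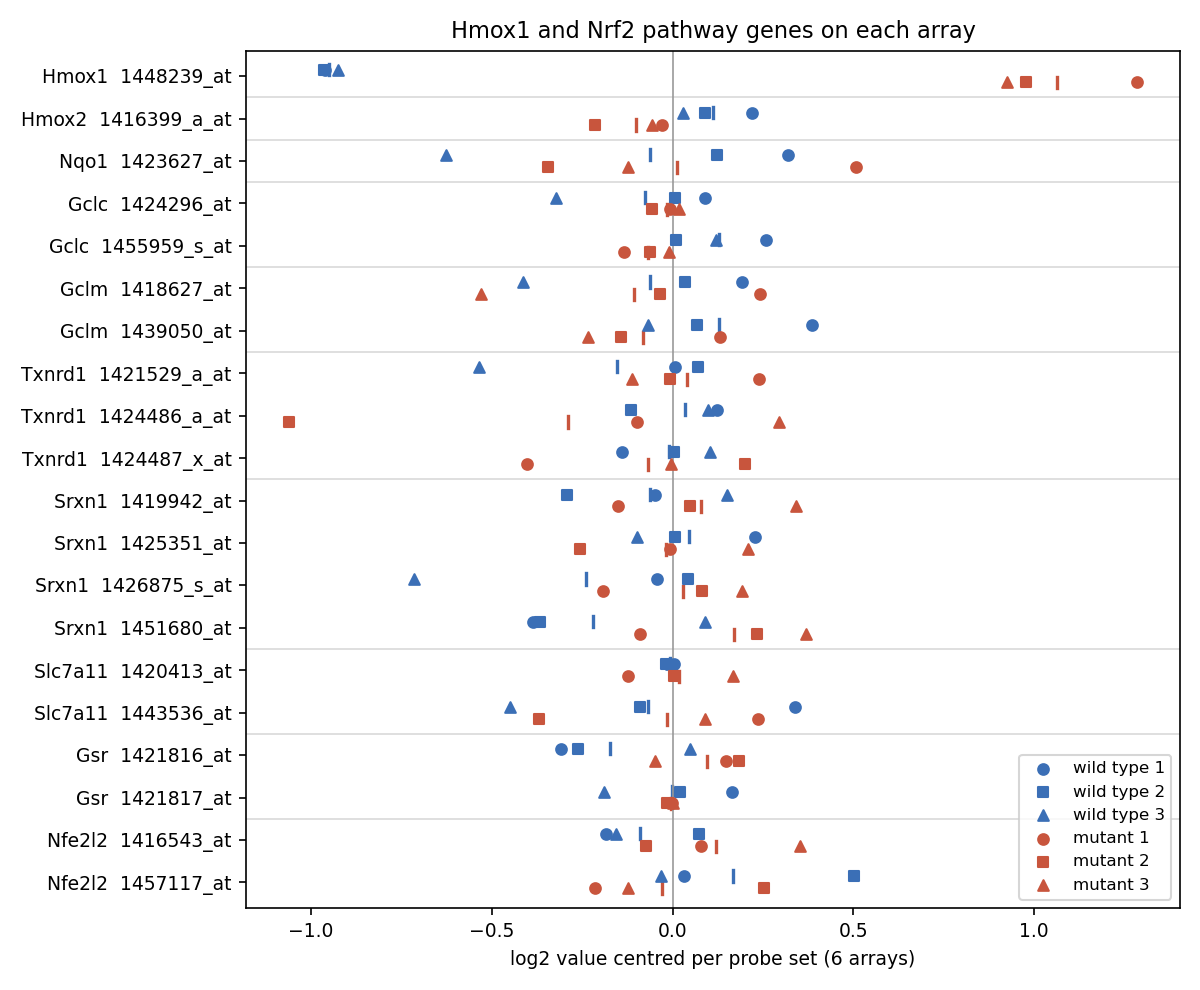
Log2 values centred per probe set (x axis) of the 20 probe sets of Hmox1 and the Nrf2 pathway genes, blue for wild type and red for mutant arrays, with a vertical bar at each group mean. Hmox1 lies near -0.95 on all wild type arrays and at 0.92 or above on all mutant arrays, while the groups of most other probe sets lie across each other.

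Hmox2 encodes the constitutive heme oxygenase, which catalyses the same reaction as Hmox1. Its probe set read 0.22, 0.09 and 0.03 in wild type lenses 1 to 3 and -0.03, -0.22 and -0.06 in mutant lenses 1 to 3. All mutant lenses thus lay just below all wild type lenses, a difference of -0.21 (SE 0.15) whose 95% interval, -0.55 to 0.12, includes 0. In all, 3 of the 20 member probe sets (15%) had groups that did not overlap, those of Hmox1 and Hmox2 and 1 of Gclc, beside 17.8% of all probe sets. Lower in mutants without overlap were 2 of them, against 9.1% of all probe sets.

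The genes that supply glutathione gave small and mixed differences. Gclc encodes the catalytic subunit of glutamate-cysteine ligase, the rate-limiting enzyme of glutathione synthesis. Its probe set 1424296_at differed by 0.06 (SE 0.16), with wild type 3 low at -0.32 and the other 5 arrays between -0.06 and 0.09. Its probe set 1455959_s_at read 0.26, 0.01 and 0.12 in wild type lenses 1 to 3 against -0.14, -0.06 and -0.01 in mutant lenses 1 to 3. The groups did not overlap there, with a difference of -0.20 (SE 0.15). The pair of Gclc probe sets thus differed in sign over all arrays. The sign of 1424296_at was not stable, since its difference was -0.04 with array weights. Gclm encodes the modifier subunit of the same enzyme, and its probe sets 1418627_at and 1439050_at differed by -0.04 (SE 0.24) and -0.21 (SE 0.18), with overlapping groups in both. Gsr, the reductase that restores reduced glutathione, differed by 0.27 (SE 0.16) at 1421816_at, where wild type 3 (0.05) lay above mutant 3 (-0.05), and by -0.0036 (SE 0.15) at 1421817_at.

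Slc7a11 encodes the light chain of the cystine-glutamate exchanger that imports the cystine for glutathione synthesis, and it is a target of Atf4 as well as of Nrf2. Its probe set 1420413_at was nearly flat, with the wild type lenses between -0.02 and 0.00 and the mutant lenses at -0.12, 0.00 and 0.17, a difference of 0.02 (SE 0.15). The second, 1443536_at, spread more widely and read 0.34, -0.09 and -0.45 in wild type lenses 1 to 3 and 0.24, -0.37 and 0.09 in mutant lenses 1 to 3. Its difference was 0.05 (SE 0.24), and both groups covered the same range.

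Srxn1 encodes sulfiredoxin, which repairs overoxidised peroxiredoxins, and it had the largest positive difference after Hmox1. At 1451680_at it read -0.38, -0.37 and 0.09 in wild type lenses 1 to 3 and -0.09, 0.23 and 0.37 in mutant lenses 1 to 3. Wild type 3 lay above mutant 1, and the difference was 0.39 (SE 0.19, 95% interval -0.05 to 0.83). The other 3 Srxn1 probe sets differed by 0.14 (SE 0.19), -0.06 (SE 0.18) and 0.27 (SE 0.22), so the 4 did not share a direction. The value of 0.27, at 1426875_s_at, rested on wild type 3, which read -0.71 there, and was 0.03 without that array.

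RefSeq promoter windows of assembly GRCm38.p6, reaching from 250 bases before to 50 bases after a transcription start, were given for 7 of the 10 genes, in 11 windows. They did not include Hmox1, Gclc and Gsr. The windows were searched on both strands for TGACNNNGC and TGAGNNNGC, the C and G forms of the antioxidant response element core, for TGAGTCA, the AP-1 site, and for TGATGCAA, the core of the amino acid response element that Atf4 binds. TGAGTCA overlaps TGAGNNNGC where it is followed by GC. Of all 32851 windows, 12.4% hold the C form, 17.6% the G form, 5.2% the AP-1 site and 0.895% TGATGCAA. Of the 11 windows, 5 held a match, 1 each of Gclm, Txnrd1, Srxn1, Slc7a11 and Nfe2l2. The share of all windows with a match to any of these motifs was not computed, so nothing is read from that count. The 250 bases before the start are shown for Srxn1, at chr2:152105274-152105523 on the plus strand, and for Slc7a11, at chr3:50443614-50443863 on the minus strand, because these windows held the most matches. Matches are in capitals and the sequences run 5′ to 3′ toward the start.
Srxn1: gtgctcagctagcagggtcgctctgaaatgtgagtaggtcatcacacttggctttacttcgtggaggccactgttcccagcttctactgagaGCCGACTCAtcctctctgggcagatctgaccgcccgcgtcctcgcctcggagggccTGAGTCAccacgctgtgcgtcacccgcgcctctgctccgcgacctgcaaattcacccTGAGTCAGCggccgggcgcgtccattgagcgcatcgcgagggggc
Slc7a11: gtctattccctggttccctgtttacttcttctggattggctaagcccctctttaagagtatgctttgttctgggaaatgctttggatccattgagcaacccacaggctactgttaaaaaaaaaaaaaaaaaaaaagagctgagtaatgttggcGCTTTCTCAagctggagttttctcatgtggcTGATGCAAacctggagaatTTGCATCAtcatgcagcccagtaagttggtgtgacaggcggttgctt
The Srxn1 stretch holds TGAGTCAGC, which is both an AP-1 site and a G form, from -45 to -37, a further AP-1 site from -102 to -96 and a G form on the other strand from -158 to -150, counted from the start. A C form on the other strand of the Srxn1 window, from 29 to 37 after the start, lies outside the stretch shown. The Slc7a11 stretch holds TGATGCAA from -66 to -59 and its reverse complement TTGCATCA from -47 to -40, and a G form on the other strand from -97 to -89. These matches describe letters in the sequence and do not show that a factor was bound.

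The genotypes overlapped at every probe set of Txnrd1 and Nqo1. Txnrd1 encodes cytosolic thioredoxin reductase, a selenoprotein that returns oxidised thioredoxin to its reduced form. Its 3 probe sets differed by 0.19 (SE 0.20), -0.32 (SE 0.30) and -0.06 (SE 0.19). The value of -0.32, at 1424486_a_at, rested on mutant 2, which read -1.06 while the other 5 arrays lay between -0.11 and 0.29, and it was 0.06 without that array. Nqo1, the quinone reductase often used as a readout of Nrf2, read 0.32, 0.12 and -0.63 in wild type lenses 1 to 3 and 0.51, -0.35 and -0.12 in mutant lenses 1 to 3. The groups covered each other, with SDs of 0.50 and 0.44, and the difference was 0.08 (SE 0.29). It was -0.21 without wild type 3, -0.17 without mutant 1 and -0.18 with array weights, and 0.29 and 0.39 within the sets of arrays that the hybridization controls separate, described further on.

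Nfe2l2 itself gave differences of opposite sign. Probe set 1416543_at read -0.18, 0.07 and -0.16 in wild type lenses 1 to 3 and 0.08, -0.07 and 0.35 in mutant lenses 1 to 3, a difference of 0.21 (SE 0.17). Probe set 1457117_at differed by -0.20 (SE 0.20), with wild type 2 the highest array at 0.50, and by -0.03 without that array. Nrf2 is regulated mainly at the protein level, which arrays do not measure.

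**Figure D2:**
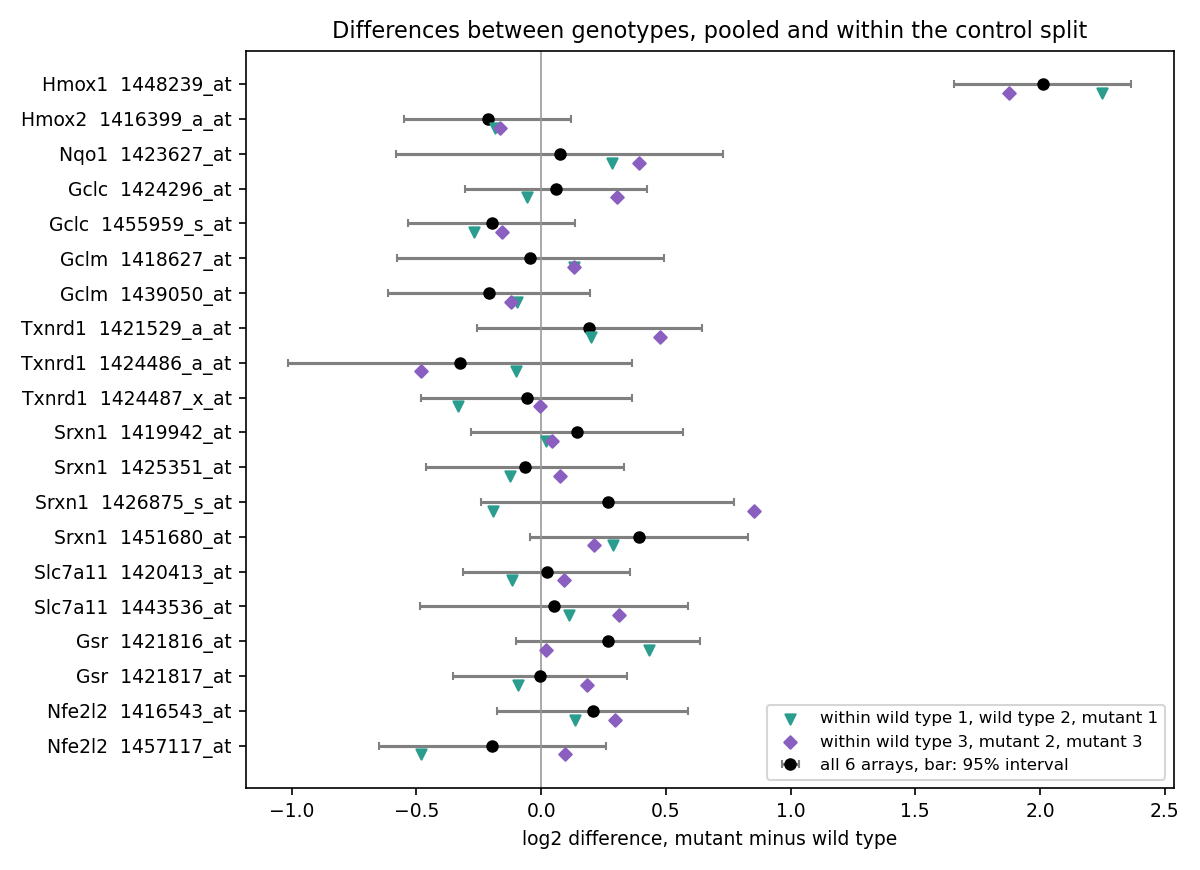
Log2 differences, mutant minus wild type (x axis), of the 20 probe sets, as black points with 95% intervals over all 6 arrays, and as coloured marks within each set of arrays given by the hybridization controls. Hmox1 lies at 2.01 with 2.25 and 1.88 within the sets, and the other 19 points lie between -0.32 and 0.39. Mutant 1 is the only mutant in its set and wild type 3 the only wild type in the other.

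The arrays also fell into sets by their technical controls. The 9 hybridization control probe sets, for RNAs added in fixed amounts when an array is prepared, averaged -1.04, -1.56 and -1.53 in wild type 1, wild type 2 and mutant 1, and 1.04, 1.56 and 1.12 in wild type 3, mutant 2 and mutant 3. Of the 20 member probe sets, 6 separated the same sets of arrays without overlap, against 21.4% of all probe sets, and nothing about the members is read from that count. Nqo1, both Gclm probe sets and Txnrd1 at 1421529_a_at were lower on the 3 arrays with high controls, and Srxn1 at 1419942_at and 1451680_at was higher there. Mutant 1 was the only mutant on arrays with low controls, and wild type 3 the only wild type on arrays with high controls. Each difference within a set thus rests on a single array on 1 side and has no SE. Within the sets, the mutant minus wild type difference of Nqo1 was 0.29 and 0.39, that of Txnrd1 at 1421529_a_at 0.20 and 0.48, and that of Srxn1 at 1451680_at 0.29 and 0.21. For Gclm it was 0.13 and 0.13 at 1418627_at, against -0.04 over all arrays, and -0.10 and -0.12 at 1439050_at. Srxn1 at 1419942_at gave 0.02 and 0.04 within the sets, against 0.14 over all arrays. With the split as a block, a fit chosen after seeing the data, Nqo1 differed by 0.34 (SE 0.14) and Txnrd1 at 1421529_a_at by 0.34 (SE 0.14), and Hmox1 by 2.06 (SE 0.14). Nqo1 and Txnrd1 were picked here among the probe sets that separate the split, so a lower SE under this block follows from that choice. Nothing about the pathway is read from their values in this fit. What the split stands for is not recorded in the sources used here, and its part in the values of single members was not tested.

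**Figure D3:**
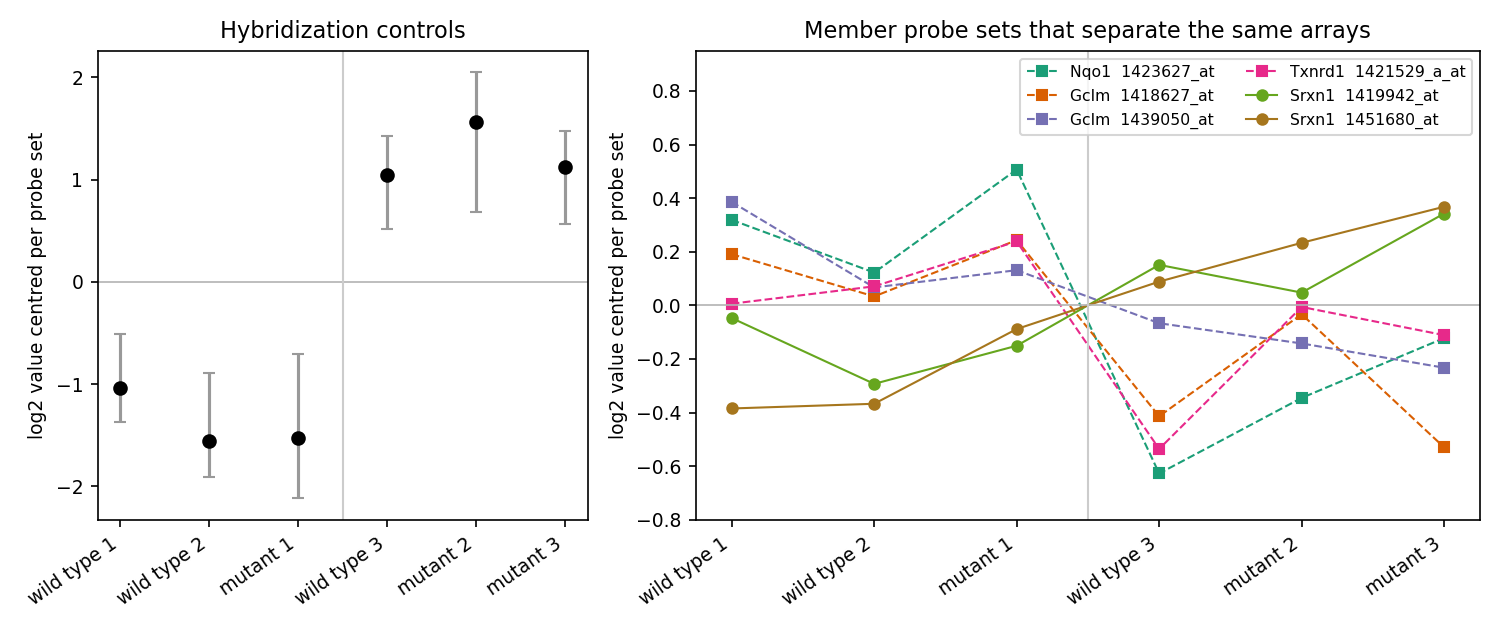
Mean of 9 hybridization controls with their lowest and highest value (left) and the 6 member probe sets that separate the same arrays (right), as log2 values centred per probe set for each array. Controls are negative in wild type 1, wild type 2 and mutant 1 and positive in the other 3 arrays, dashed lines mark probe sets that are lower there, and the lines only join the values of 1 probe set.

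Wild type 3 was the lowest array for 6 of the 20 member probe sets, 1 each of Nqo1, Gclc, Txnrd1, Srxn1, Slc7a11 and Gsr, and the highest for 0. Over all probe sets it was lowest in 21.9% and highest in 25.9%, and its values had the largest SD of the arrays (0.384, against 0.223 to 0.332 in the others). Over the 6 arrays, which share these array effects, the 176 pairs of member probe sets from different genes had a median Pearson r of 0.11, with a range from -0.89 to 0.94. The 14 pairs from the same gene had a median r of -0.05. Nqo1 and Slc7a11 at 1443536_at were among the most alike (r = 0.90), and Nqo1 and Hmox1 were not (r = 0.16). With Hmox1, the r of the other member probe sets ran from -0.80 (Gclc at 1455959_s_at) to 0.73 (Gsr at 1421816_at).

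Among other genes listed around the pathway, 1 passed with adjustment over all probe sets. Lists by function, 8 in all, held 125 genes, of which 113 had a probe set of their own, and the probe set with the largest SD over all arrays stood for each gene. Txnip, whose protein binds and inhibits thioredoxin, rose by 1.10 (SE 0.18, adjusted p = 0.0469 in limma). It read -0.68, -0.30 and -0.72 in wild type lenses 1 to 3 and 0.72, 0.30 and 0.58 in mutant lenses 1 to 3, with every mutant above every wild type lens. Its second probe set read 0.30. The call was lost with any array left out, where the difference lay between 1.01 and 1.23 and limma's adjusted p between 0.0518 and 0.215. In all 1 gene rose and 0 fell, or 0.885% of the 113, beside 0.748% of 18193 genes taken the same way. At an unadjusted p below 0.05 in limma there were 17 higher and 8 lower, or 22.1%, beside 15.6% of those genes. The median difference was 0.04 against -0.03. The lists mix targets, regulators and inhibitors of Nrf2 with other genes, so these counts describe no common direction.

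Of the 14 regulators and partners of Nrf2, 0 passed in limma, and 1 was higher and 3 lower at an unadjusted p below 0.05, with a list median of -0.16. Keap1, the inhibitor of Nrf2, differed by -0.39 (SE 0.16, adjusted p = 0.374 in limma) and read 0.17, 0.30 and 0.05 against -0.05, -0.29 and -0.31. The second Keap1 probe set read -0.08. Sqstm1, the autophagy receptor that binds Keap1, differed by 0.59 (SE 0.15, adjusted p = 0.136 in limma), although its second probe set read -0.07. Mafg, a small Maf partner, differed by -0.50 (SE 0.16, adjusted p = 0.266 in limma). None of these reached the threshold.

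Heme and iron genes did not pass beside Hmox1. Of 19 measured, 0 passed in limma, 1 was higher and 1 lower at an unadjusted p below 0.05, and the median was -0.08. Blvra, the biliverdin reductase that acts on the product of heme oxygenase, differed by -0.38 (SE 0.15, adjusted p = 0.361 in limma). Its values of 0.10, 0.13 and 0.21 in wild type against -0.24, -0.36 and -0.10 in mutants did not overlap. Pgrmc1, a heme-binding membrane protein, differed by 0.62 (SE 0.16, adjusted p = 0.147 in limma). Ireb2, which regulates iron uptake and storage messages, differed by 0.25 (SE 0.15, adjusted p = 0.583 in limma).

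The remaining lists held no other call. Of 20 genes for glutathione synthesis, transport and peroxidases, 0 passed in limma and 6 were higher and 0 lower at an unadjusted p below 0.05, with a median of 0.07. They included the glycine transporter gene Slc6a9 (0.58, SE 0.14, adjusted p = 0.117 in limma), the cystathionine gamma-lyase gene Cth (0.74, SE 0.21) and the neutral amino acid transporter gene Slc1a4 (0.51, SE 0.15), whose other probe sets read -0.22 and -0.19. Among the 14 thioredoxin and peroxiredoxin genes, Msra, a methionine sulfoxide reductase gene, differed by -0.57 (SE 0.17, adjusted p = 0.207 in limma) and Txnl1 by 0.45 (SE 0.22). Of 17 genes for phase 2 detoxification outside the glutathione S-transferases, 0 passed in limma and 4 were higher and 0 lower at an unadjusted p below 0.05. The epoxide hydrolase gene Ephx1 came nearest (0.84, SE 0.19, adjusted p = 0.103 in limma), and it passed with the hybridization control split as a block (0.94, adjusted p = 0.0440 in limma). Ugdh and Aldh1a1 of the same list differed by 0.57 (SE 0.17) and 0.40 (SE 0.15).

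Of 9 genes for NADPH supply, 0 passed in limma, and 1 was higher and 1 lower at an unadjusted p below 0.05. They were the malic enzyme gene Me1 (0.59, SE 0.17) and Pgls (-0.35, SE 0.15), a gene of the pentose phosphate pathway, while Idh2 stood at -0.38 (SE 0.17). Of 10 genes for removing superoxide and peroxide, 0 passed in limma, and 2 were higher and 1 lower at an unadjusted p below 0.05. Mt1, a metallothionein gene, differed by 0.77 (SE 0.22) with a second probe set at -0.41, the copper chaperone gene Ccs by -0.59 (SE 0.19), and the mitochondrial superoxide dismutase gene Sod2 by 0.58 (SE 0.25), with other probe sets down to -0.35. Of 10 Atf4 targets and other factors known to act on Hmox1 or Slc7a11, 0 passed in limma, and 1 was higher and 1 lower at an unadjusted p below 0.05. Jun differed by -0.64 (SE 0.18, adjusted p = 0.175 in limma), Atf4 by 0.66 (SE 0.27) with other probe sets near 0, and Hif1a by -0.36 (SE 0.19).

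**Figure D4:**
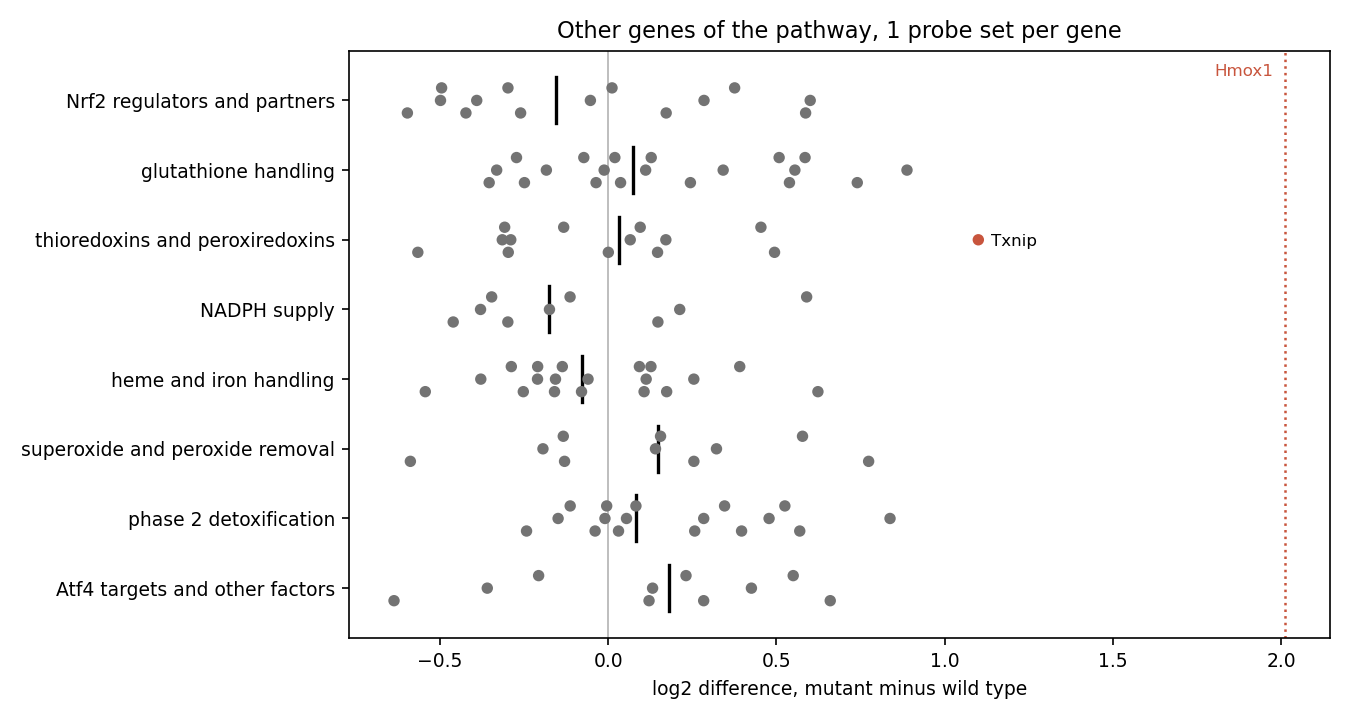
Log2 differences, mutant minus wild type (x axis), of 113 other genes in 8 lists by function around the pathway, 1 probe set per gene. A black bar marks each list's median and a dotted line the Hmox1 difference. Txnip, in red at 1.10, is the 1 gene that passed, and all points lie below the line at 2.01.

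The 5 genes whose pattern was most like that of Hmox1 lay outside the pathway lists. Those lists held 113 of 18193 genes, so nothing about the pathway is read from this. Over the 6 arrays and 16443 genes, the highest Pearson r belonged to Dnajb1 (r = 0.9988), a heat shock co-chaperone gene, and to Hspb1 (r = 0.9984), a small heat shock protein gene. Marchf11 (r = 0.9951), a ubiquitin ligase gene, Sdk2 (r = 0.9943), a neural adhesion gene, and Rimbp3 (r = 0.994) followed. Dnajb1 read -0.42, -0.46 and -0.40 in wild type lenses 1 to 3 and 0.60, 0.49 and 0.40 in mutant lenses 1 to 3. It thus placed all 6 arrays in the same order as Hmox1, with mutant 1 highest and wild type 2 lowest. Because Hmox1 splits into 2 tight groups, such an r mostly restates the difference between genotypes, and it is given as a description of 6 arrays. By Spearman's rho, 14 of the 16443 genes shared the highest value of 1, and of the 5 genes only Dnajb1 was among them. With 6 arrays and so many genes, several can share an order without any link, so nothing is read from it.

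Markers of other cell types were set beside Hmox1, since in whole lenses more cells of a type and more RNA per cell cannot be told apart. Of 16 macrophage markers, 15 were higher in mutants and 1 lower, 0 passed in limma, 9 were higher and 1 lower at an unadjusted p below 0.05, and the median difference was 0.77. Their mean was -0.62, 0.11 and -1.02 in wild type lenses 1 to 3 and 0.03, 0.21 and 0.47 in mutant lenses 1 to 3. This mean spread over 1.13 among wild type lenses, and wild type 2 lay above mutant 1. The Hmox1 values of the wild type lenses spread over 0.04. Without wild type 2, 4 of these markers passed. The largest differences were those of C1qb, a complement gene (1.53, SE 0.34, adjusted p = 0.0946 in limma), Ctss, a lysosomal protease gene (1.51, SE 0.30, adjusted p = 0.0650 in limma), and Csf1r, a macrophage growth factor receptor gene (1.39, SE 0.42, adjusted p = 0.222 in limma). The smallest of the 15 positive differences was 0.16, of Cx3cr1, and the negative one was -0.86, of Laptm5. The 4 other Laptm5 probe sets lay between -0.07 and 0.76, and the other Cx3cr1 probe set at 0.003. Other probe sets lay at 0.64 and 0.76 for C1qb and at 0.60 and 1.11 for Csf1r. By the probe set taken for each gene, all 12 retinal neuron and progenitor markers were higher in mutants, with a median difference of 1.78. Of them 9 passed, beside 0.748% of all genes taken the same way. Their array means were -1.05, -0.53 and -1.12 in wild type against 0.83, 1.11 and 0.51 in mutant lenses. Of all 23 probe sets of these markers 10 passed, and those not taken ran from -0.29 (Syt1) to 1.94 (Neurod1). Of these markers 0 passed in limma without wild type 1, mutant 1 or mutant 2, 1 without mutant 3, 2 without wild type 3 and 7 without wild type 2, while the unadjusted p was below 0.05 for all 12 on the full set of arrays. Their mean spread over 0.59 among wild type lenses, and it was highest in mutant 2. The part of macrophages or retinal cells in the Hmox1 difference was not tested.

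Of 8 erythroid markers 2 were higher and 6 lower, with a median of -0.17, and of 12 endothelial markers 6 were higher and 6 lower, with a median of -0.02. In both lists 0 passed in limma and 0 had an unadjusted p below 0.05. Of 13 lens markers 11 were lower and 2 higher in mutants, 0 passed in limma, 5 were lower and 0 higher at an unadjusted p below 0.05, and the median was -0.38. Since centring removed all levels, neither the presence of lens markers nor the absence of others could be checked.

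**Figure D5:**
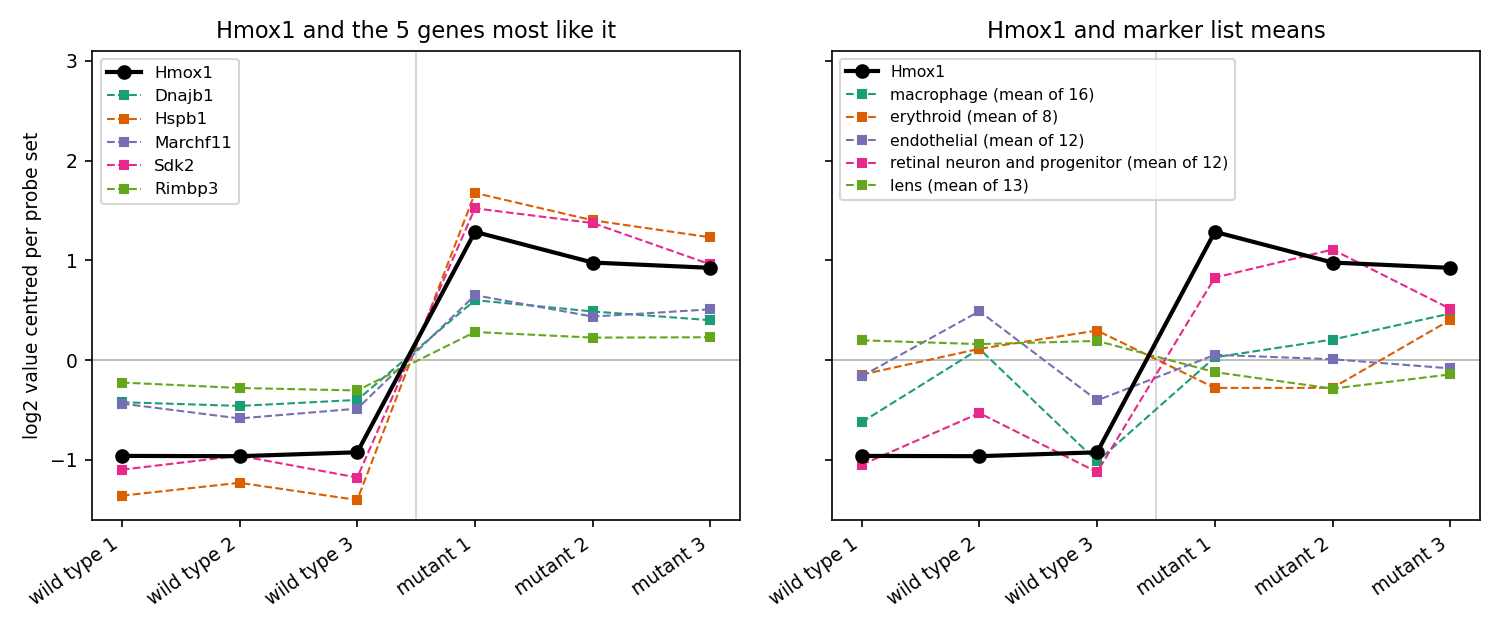
Log2 values centred per probe set on each array for Hmox1 (black) with the 5 genes most like it (left) and with the mean of each marker list (right). Hmox1 stays between -0.96 and -0.92 on the wild type arrays. The macrophage mean there ranges from -1.02 to 0.11, and the lines only join the values of 1 gene or list.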

How the data were processed

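The 6 arrays were made by the authors with RMA, as the submitters' processing notes say without a version. The deposited values are taken as log2 from RMA's usual output and their range. Every probe set has a median of 0 (to within 5e-07), which shows a centring that no source records. Of 45101 probe sets, 64 array controls were left out, and 34945 had 1 symbol in the platform annotation. All 45037 were fitted with limma 3.58.1 in R 4.3.3 (lmFit, eBayes), two-sided, with Benjamini-Hochberg adjustment over all of them, and the procedure was tested on simulated data. With 3 arrays per group, their number limits the precision.

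The members and lists were chosen with earlier results of these data known. Named are all members, listed genes that passed, up to 3 genes per list with the smallest p, and the 5 genes most correlated with Hmox1. The named macrophage markers and some array comparisons were chosen after their values were seen. Genes are represented by their probe set of largest SD. Alternatives were leaving out each array, subtracting array medians, repeating quantile normalisation, weighting arrays, robust variances, leaving out _x_at and _s_at probe sets, a replicate block, and, added after seeing the data, the hybridization control split as a block. A further planned fit kept only probe sets with an SD above the median, and its results are not given here.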

Additional observations from a re-analysis of the deposited data

How the results depend on the processing

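The Hmox1 difference lay between 1.90 and 2.08 under the 13 alternatives run on it, a description of the gene that this contrast chose. Of the other member probe sets, 0 passed under any of them, and the sign changed in 25 of 244 recomputed differences, all within 1 SD of the value reported. The 211 probe sets called over the whole table became 584 with repeated quantile normalisation, 889 with array weights, 530 with the replicate number as a block and 790 with the hybridization control split as a block, and 7 to 155 with 1 array left out. Of the other genes in the lists by function, 1 was called. The count was 2 with array weights, 0 with the replicate block, 2 with the control split as a block and 0 to 0 with 1 array left out. The second call was Jun with array weights (-0.75) and Ephx1 with the split. Of macrophage markers 2 passed with quantile normalisation, 2 with array weights, 1 with the replicate block and 0 to 4 with 1 array left out, the 4 without wild type 2. Of lens markers 2 passed with array weights, 1 with the replicate block and 1 with the split. The 9 retinal calls became 12 with quantile normalisation, 12 with array weights, 10 with the replicate block, 10 with the split, 8 without the _x_at and _s_at probe sets, and 0 to 7 with 1 array left out. The cause was not tested. Deviations from the group mean correlated by 0.33, -0.14 and 0.26 between arrays with the same replicate number, and by -0.43 to 0.30 otherwise. The correlations were positive within each set given by the hybridization controls and negative between the sets. The labels state no pairing. Under the replicate block Txnip kept its 1.10 with limma's adjusted p at 0.0511. Signal over background is not known from centred values.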
